A study of Mus musculus with 12 samples.

Results

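The BMP and TGF-beta pathway was followed in mouse brain gliomas through 34 genes, chosen by name: the ligands, receptors, Smad proteins, Id target genes and inhibitors of this signalling family. A probe was named for 33 of the 34, and 30 passed the detection filter, out of 14155 genes tested in the series. The tumours came from 12 C57BL/6 mice, 1 bead array per animal. The 6 Tlx knockout animals carried the genotype given as Tlx f/f with N-Tva and CRE+, and the 6 Tlx intact animals were littermates labelled CRE-. Tlx, now named Nr2e1, is a nuclear receptor of neural stem cells. All animals had both Tlx alleles floxed and a Nestin-driven Tva, the receptor that lets an avian retrovirus into a cell, and all received tamoxifen 2.5 weeks after tumours were started. The inducible Cre, given for the line as Nestin-CreERT2, is driven by the Nestin promoter of neural progenitors, so a knockout tumour sample can also hold cells with an intact gene. Age at collection was 62.2 ± 10.1 days in the knockout group and 44.8 ± 5.08 days in the intact group (SD, n = 6 each), so age differed with group.

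Bone morphogenetic proteins (BMPs) and transforming growth factors beta (TGF-betas) are secreted ligands that bring together type I and type II receptor kinases. BMP receptors phosphorylate Smad1 and Smad5, whereas TGF-beta and activin receptors phosphorylate Smad2 and Smad3, and these enter the nucleus with a shared partner Smad. In neural tissue BMP signalling is known for raising the Id genes, which encode inhibitors of basic helix-loop-helix transcription factors, and for favouring astrocyte fate. TGF-beta is known in brain for the upkeep of microglia and in glioma for its effects on invasion and immune cells.

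The upstream sequences below are shown for the Id genes, which are read as the transcriptional targets of BMP signalling, for Smad1, the member with the widest difference between the groups, and for Tgfb1 and Tgfbr1, the only members tested against the microglia and macrophage markers. Each runs 5′ to 3′ over the 250 bases before the gene's start in RefSeq (build GRCm38.p6). Capitals mark matches on either strand to GGCGCC, a GC-rich element known to bind Smad1, and to CAGAC, an element known to bind Smad3. Of 34 members, 22 had an entry in the RefSeq table, and Id1 was not among them. The windows are chr12:25096093-25096342 (- strand) for Id2, chr4:136143572-136143821 (+ strand) for Id3, chr13:48260866-48261115 (+ strand) for Id4, chr8:79399429-79399678 (- strand) for Smad1, chr7:25686752-25687001 (+ strand) for Tgfb1 and chr4:47352972-47353221 (+ strand) for the upstream of the 2 entries of Tgfbr1.
Id2: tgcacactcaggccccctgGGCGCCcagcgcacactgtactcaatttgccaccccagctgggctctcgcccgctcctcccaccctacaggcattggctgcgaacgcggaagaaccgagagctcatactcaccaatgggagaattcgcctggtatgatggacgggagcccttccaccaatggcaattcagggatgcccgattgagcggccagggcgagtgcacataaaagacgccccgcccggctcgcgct
Id3: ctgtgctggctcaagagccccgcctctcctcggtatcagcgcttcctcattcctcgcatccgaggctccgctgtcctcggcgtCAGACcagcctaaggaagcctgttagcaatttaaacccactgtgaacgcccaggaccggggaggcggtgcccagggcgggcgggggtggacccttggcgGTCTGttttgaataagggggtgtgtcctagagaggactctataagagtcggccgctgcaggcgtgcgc
Id4: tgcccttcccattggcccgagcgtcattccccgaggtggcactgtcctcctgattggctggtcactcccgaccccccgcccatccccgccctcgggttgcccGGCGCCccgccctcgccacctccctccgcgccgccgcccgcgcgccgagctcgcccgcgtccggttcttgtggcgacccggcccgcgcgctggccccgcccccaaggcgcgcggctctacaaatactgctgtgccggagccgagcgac
Smad1: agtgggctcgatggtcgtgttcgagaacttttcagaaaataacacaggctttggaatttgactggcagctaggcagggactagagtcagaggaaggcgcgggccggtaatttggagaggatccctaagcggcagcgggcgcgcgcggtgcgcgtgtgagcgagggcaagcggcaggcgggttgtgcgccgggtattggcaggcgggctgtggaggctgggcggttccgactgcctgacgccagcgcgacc
Tgfb1: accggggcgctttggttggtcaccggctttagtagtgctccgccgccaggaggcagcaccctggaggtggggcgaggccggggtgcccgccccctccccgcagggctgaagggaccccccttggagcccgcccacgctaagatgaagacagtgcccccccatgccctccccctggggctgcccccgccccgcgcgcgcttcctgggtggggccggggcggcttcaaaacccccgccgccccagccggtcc
Tgfbr1: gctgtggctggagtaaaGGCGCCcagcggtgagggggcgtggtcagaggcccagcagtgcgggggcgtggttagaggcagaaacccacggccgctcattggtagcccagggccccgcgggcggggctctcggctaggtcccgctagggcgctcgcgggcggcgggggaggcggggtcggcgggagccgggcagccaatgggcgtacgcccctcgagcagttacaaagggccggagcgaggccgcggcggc
The GGCGCC element stood in the Id2, Id4 and Tgfbr1 windows, and the CAGAC element in the Id3 window. Among all 32841 windows of this length, 9.59% held GGCGCC and 42.2% held CAGAC. Among the 28 windows of members, 9 held GGCGCC and 12 held CAGAC. The palindrome GTCTAGAC, also known to bind Smad3, stood in 0.167% of all windows and in 0 of the 28. None of the 3 motifs contains another. A match is a description of these letters only.

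Array depth was similar across the series, with median signals of 134.5 to 161 intensity units and 50.8% to 54.8% of 45135 probes detected. All log2 values below are background-corrected, quantile-normalised intensities. Nr2e1, the targeted gene, read 4.72 to 6.21 in knockout tumours and 5.37 to 6.65 in intact tumours, a difference of -0.58 (SE 0.26, limma adjusted p = 0.405), and the position of its probe relative to the deleted part is unknown here. Markers of oligodendrocyte progenitors, fixed as a list of 9 genes that includes Olig2 and Pdgfra, were measured for 8 and detected on all 12 arrays for 8, and 7 of the 8 were above 0, with a list mean 0.33 higher in knockout tumours. The list mean was lower in knockout tumours for neurons (-1.17, 0 of 7 markers above 0), astrocytes (-0.61, 0 of 9) and oligodendrocytes (-0.48, 0 of 8). Knockout replicate 4 stood apart, with the lowest list means of the series for neurons (-2.07), astrocytes (-1.59), pericytes and fibroblasts (-1.41) and oligodendrocytes (-0.99), each as the mean log2 deviation from the 12-array mean. For the members in which this array was the lowest or the highest of the series, the difference is also given without it. In these bulk samples fewer cells of a type and less RNA per cell cannot be told apart. The labels also give each animal a number, and series A of those numbers holds 3 knockout and 2 intact animals, while every other series holds animals of 1 group. In the deposited table the first 6 columns hold 5 knockout and 1 intact array and the last 6 hold 1 knockout and 5 intact arrays.

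No member passed the test between the groups. By limma, 0 of 30 measured members were higher and 0 were lower in knockout tumours at an adjusted p below 0.05, where 0.0141% of all genes were called (2 of 14155), 0.00706% in each direction. At an unadjusted p below 0.05 there were 2 of 30 members (6.67%), 1 higher and 1 lower, beside 11.9% of all genes. The median difference, log2 knockout minus intact, was 0.077 over the 30 members and -0.0026 over all genes, and 18 of the 30 were above 0 (60.0%, beside 49.6% of all genes). The groups overlapped for each of the 30 members, beside 0.650% of all genes whose groups did not overlap. The absolute difference had a median of 0.20 over the members and 0.18 over all genes. The plot of differences shows every member with its confidence interval.

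**Figure D1:**
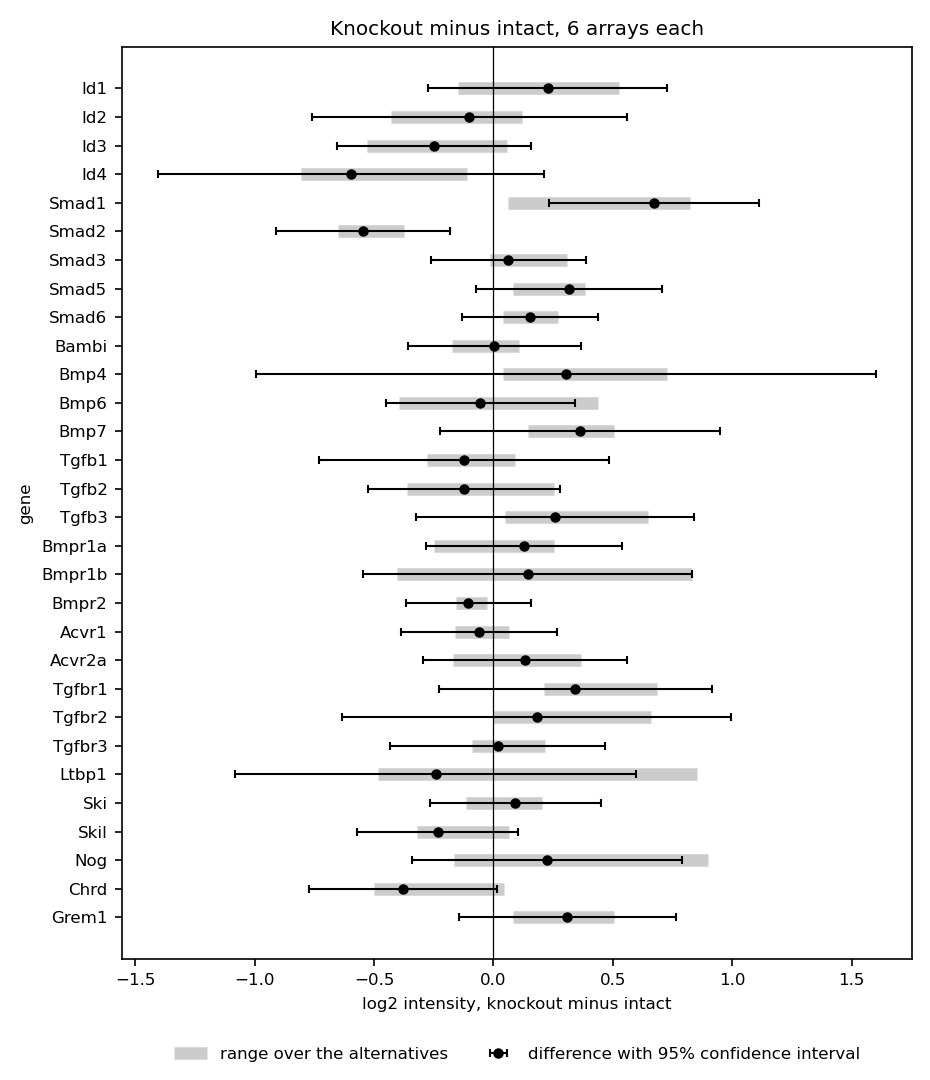
Log2 intensity difference, knockout minus intact, for the 30 measured members, with the 95% confidence interval of the limma fit as black bars and the range over those of the 24 alternatives that measured the gene as grey bars. The intervals of Smad1 (0.23 to 1.11) and Smad2 (-0.91 to -0.18) exclude 0, and neither gene passed the adjusted threshold.

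Among the receptor-activated Smads, Smad1 and Smad2 had the smallest p-values of all members, with opposite signs. Smad1, which carries BMP signals, read 9.44 at the lowest, 9.48 at the median and 9.68 at the highest in knockout tumours, against 8.39, 8.68 and 9.60 in intact tumours. The knockout arrays lay close together (SD 0.09) and above 5 of 6 intact arrays, and the intact arrays were spread out (SD 0.51). The difference was 0.67 (SE 0.21, 1.59-fold, limma adjusted p = 0.234). The high intact arrays were replicates 1 and 2, at 9.60 and 9.34, which are the intact animals of series A, and the other 4 intact arrays lay between 8.39 and 8.75. Within series A Smad1 averaged 9.53 in knockout and 9.47 in intact tumours, and with the number series as a block the difference was 0.06 (SE 0.20, limma adjusted p = 0.999). Within the first 6 columns it was 0.78, within the last 6 it was 0.58, and with the column position as a block it was 0.68 (SE 0.28, adjusted p = 0.612). Without intact replicate 1 it was 0.82 (limma adjusted p = 0.0530). Knockout replicates 3 and 4, which had the lowest microglia and macrophage marker means of the series (-0.86 and -0.73), read 9.51 and 9.57 for Smad1. Intact replicate 1, which had the highest (0.69), read 9.60. Intact replicate 2, at 9.34, had the next highest marker mean of the intact arrays (0.17). The marker means of the other 4 intact arrays lay between -0.17 and 0.02. A relation of Smad1 with these markers was not tested.

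Smad2, which carries TGF-beta and activin signals, read 7.48 at the lowest, 7.80 at the median and 7.96 at the highest in knockout tumours, against 7.81, 8.38 and 8.82 in intact tumours. Intact replicate 4, at 7.81, was the 1 intact array inside the knockout range. The difference was -0.55 (SE 0.17, 0.685-fold, limma adjusted p = 0.237). It was -0.41 (SE 0.30, adjusted p = 0.999) with the number series as a block, -0.48 (SE 0.23, adjusted p = 0.672) with the column position as a block, -0.57 within the first 6 columns and -0.38 within the last 6. Without knockout replicate 4, its lowest array, the difference was -0.48 (SE 0.17). Inside series A Smad2 averaged 7.85 in knockout and 8.26 in intact tumours.

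The partners of these Smads did not pass the test, and their probes differed among themselves. Smad5, which shares the BMP branch with Smad1, read 9.54 to 10.28 in knockout and 9.05 to 9.76 in intact tumours, with a difference of 0.32 (SE 0.18, limma adjusted p = 0.514) and a second probe at -0.12. Smad3, of the TGF-beta branch, was steady on its brightest probe, at 10.27 to 10.63 in knockout and 9.97 to 10.82 in intact tumours (difference 0.06, 95% interval -0.26 to 0.39). Its second probe gave another picture, with 7.68, 8.21 and 8.31 as lowest, median and highest in knockout tumours, against 7.13, 7.44 and 8.12 in intact tumours. On that probe 4 of 6 knockout arrays lay above every intact array, and the difference was 0.55 (SE 0.19). Smad6, an inhibitory Smad that BMP signals are known to induce, read 5.16 to 5.66 in knockout and 4.98 to 5.42 in intact tumours, a difference of 0.15 (SE 0.13), with 4 of 6 knockout arrays above every intact array. The inhibitory Smad7 was detected on 0 of 12 arrays, at raw signals of 110 to 143 intensity units. Smad4, the shared partner, was not analysed here.

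**Figure D2:**
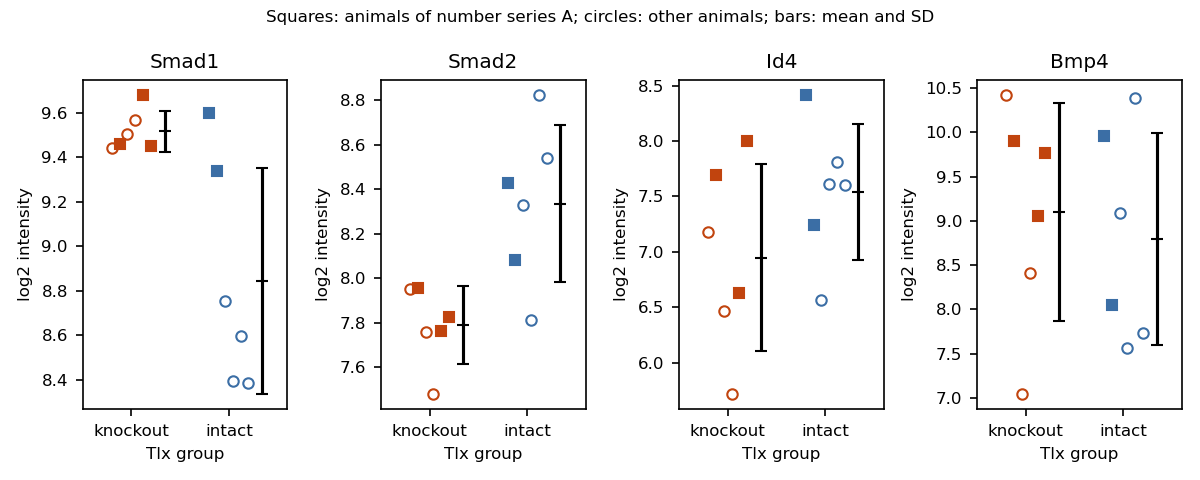
Log2 intensity of Smad1, Smad2, Id4 and Bmp4 in each of the 6 knockout and 6 intact tumours, with the mean and SD beside each group. Squares are animals of number series A; for Smad1 the intact squares, at 9.60 and 9.34, lie with the knockout arrays.

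The 4 Id genes did not share a direction. Of their differences, 1 was above 0 and the median was -0.17, and 0 of 4 passed the test. Id1 read 8.06 at the lowest, 8.47 at the median and 8.65 at the highest in knockout tumours, against 7.55, 8.20 and 8.93 in intact tumours. The intact range thus enclosed the knockout range, and the difference was 0.23 (SE 0.23, 95% interval -0.27 to 0.73, limma adjusted p = 0.733). Id3 read 7.37, 7.67 and 7.996 in knockout tumours, against 7.47, 7.91 and 8.63 in intact tumours. Intact replicate 1 was the highest array, and the difference was -0.25 (SE 0.19, 95% interval -0.65 to 0.16).

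Id4, which in brain marks progenitors and astrocyte-lineage cells, had the widest interval of the 4 Id genes. It read 5.71 at the lowest, 6.90 at the median and 7.999 at the highest in knockout tumours, against 6.56, 7.61 and 8.42 in intact tumours. The difference was -0.60 (SE 0.38, 95% interval -1.40 to 0.21, limma adjusted p = 0.564), its second probe was at -0.85, and without knockout replicate 4, the lowest array, it was -0.35 (SE 0.34). The astrocyte marker list, 9 of 9 measured and each detected on all 12 arrays, had 0 of 9 markers above 0 and a summed intensity of 15471 to 43348 in knockout and 28599 to 49613 in intact tumours. The neuron and oligodendrocyte lists were lower too, as given above, and the part of these lists in the Id4 values was not tested. Within the first 6 columns the Id4 difference was 0.34 and within the last 6 it was -0.56. Id2 read 8.84 to 9.88 in knockout and 8.54 to 10.36 in intact tumours on its brightest probe. The 3 Id2 probes gave differences of -0.10, 0.51 and -0.47, so no direction can be given for this gene.

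The BMP ligands were led in variability by Bmp4, which differed widely from animal to animal in both groups. Bmp4 read 7.04 at the lowest, 9.41 at the median and 10.42 at the highest in knockout tumours, against 7.56, 8.57 and 10.39 in intact tumours. Its SD within groups was 1.21 on the log2 scale, at percentile 98.7 of all genes tested. The high arrays were knockout replicates 1, 2 and 6 and intact replicates 1 and 5, and the low arrays were knockout replicate 3 and intact replicates 2, 4 and 6. Against that spread the group difference of 0.30 (SE 0.60, 95% interval -0.995 to 1.603) is small, and it was 0.04 without knockout replicate 1 and 0.72 without knockout replicate 3. The second Bmp4 probe, detected on 9 of 12 arrays, differed by 0.39.

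Bmp7, a ligand of meninges, choroid plexus and neural progenitors, read 8.31 to 9.92 in knockout and 7.96 to 9.17 in intact tumours. Its difference of 0.36 (SE 0.27, limma adjusted p = 0.630) was 0.15 (SE 0.22) without knockout replicate 4, which was the highest array at 9.92. Within the first 6 columns it was -0.38 and within the last 6 it was 0.69. Bmp6 lay near background, detected in 1 of the 6 knockout tumours and 3 of the 6 intact ones, and differed by -0.05 (SE 0.19). Bmp2 was detected on 0 of 12 arrays, at raw signals of 98.7 to 145 intensity units.

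The TGF-beta ligands did not differ beyond their spread. Tgfb1, the isoform of immune and vascular cells, read 5.66 at the lowest, 6.65 at the median and 7.28 at the highest in knockout tumours, against 5.95, 6.64 and 6.99 in intact tumours. Knockout replicates 3 and 4 were the low arrays of that gene, and the difference was -0.12 (SE 0.28, 95% interval -0.73 to 0.49). It was 0.05 (SE 0.26) without knockout replicate 4 and -0.28 (SE 0.27) without knockout replicate 1, so no direction can be given for Tgfb1. Tgfb2, the isoform of astrocytes and neurons, differed by -0.12 (SE 0.19, 95% interval -0.52 to 0.28). Tgfb3 differed by 0.26 (SE 0.27), and by 0.47 (SE 0.22, limma adjusted p = 0.427) without knockout replicate 4. Ltbp1, which tethers latent TGF-beta to the matrix, read 5.52 to 6.76 in knockout and 5.14 to 7.78 in intact tumours. Its difference of -0.24 (SE 0.39) came from its brightest probe, while 2 further probes, detected on 5 and 6 of 12 arrays, were at 0.27 and 0.10. With the number series as a block the Ltbp1 difference was 0.85.

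The 3 TGF-beta receptors had differences of 0.02 to 0.34 on their brightest probes, none past the test. Tgfbr1, the type I receptor, read 10.04 at the lowest, 11.32 at the median and 11.74 at the highest in knockout tumours, against 10.47, 10.62 and 11.32 in intact tumours. Knockout replicates 1, 5 and 6 lay above every intact array and knockout replicate 4 lay below them all. The difference was 0.34 (SE 0.27, limma adjusted p = 0.643), and 0.55 (SE 0.22, limma adjusted p = 0.351) without knockout replicate 4, but 0.21 (SE 0.26) without knockout replicate 1, the highest array. Tgfbr2, the type II receptor, read 8.79, 10.67 and 11.23 in knockout tumours, against 9.45, 10.07 and 11.03 in intact tumours. Its difference was 0.18 (SE 0.38), and 0.49 (SE 0.30) without knockout replicate 4, the lowest array for both receptors, and -0.001 (SE 0.38) without knockout replicate 1. A second Tgfbr2 probe, detected on 9 of 12 arrays, was at -0.12 (SE 0.35). Tgfbr3, the co-receptor betaglycan, differed by 0.02 (SE 0.21), and by 0.17 (SE 0.18) without knockout replicate 4.

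On their brightest probes the 5 BMP and activin receptors had differences between -0.11 and 0.14. Bmpr2, a type II receptor, was the steadiest member, at 10.84 to 11.24 in knockout and 10.98 to 11.38 in intact tumours. Its SD within groups was 0.14, at percentile 2.38 of all genes, and the 95% interval of its difference ran from -0.37 to 0.16. Bmpr1a, a type I receptor, differed by 0.13 (SE 0.19) and Acvr1, another, by -0.06 (SE 0.15), which was -0.14 (SE 0.14) without knockout replicate 4. A second Acvr1 probe, detected in 3 of the 6 knockout tumours and 0 of the 6 intact ones, was at 0.19 (SE 0.16). Acvr2a, which binds activins, lay near background, and its 2 probes went opposite ways. The brighter one was detected in 5 of the 6 knockout tumours and 2 of the 6 intact ones and differed by 0.13 (SE 0.20). The other was detected in 1 of the 6 knockout tumours and 3 of the 6 intact ones and differed by -0.27 (SE 0.14). Each probe reached 3 detected arrays only in the group where it read higher. The filter thus favoured opposite signs, and both differences are a description. Bmpr1b differed by 0.14 (SE 0.32) on its brightest probe and by -0.95 (SE 0.46) on a probe detected on 9 arrays. On the brightest probe intact replicate 3, at 4.95, lay far below the other intact arrays.

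**Figure D3:**
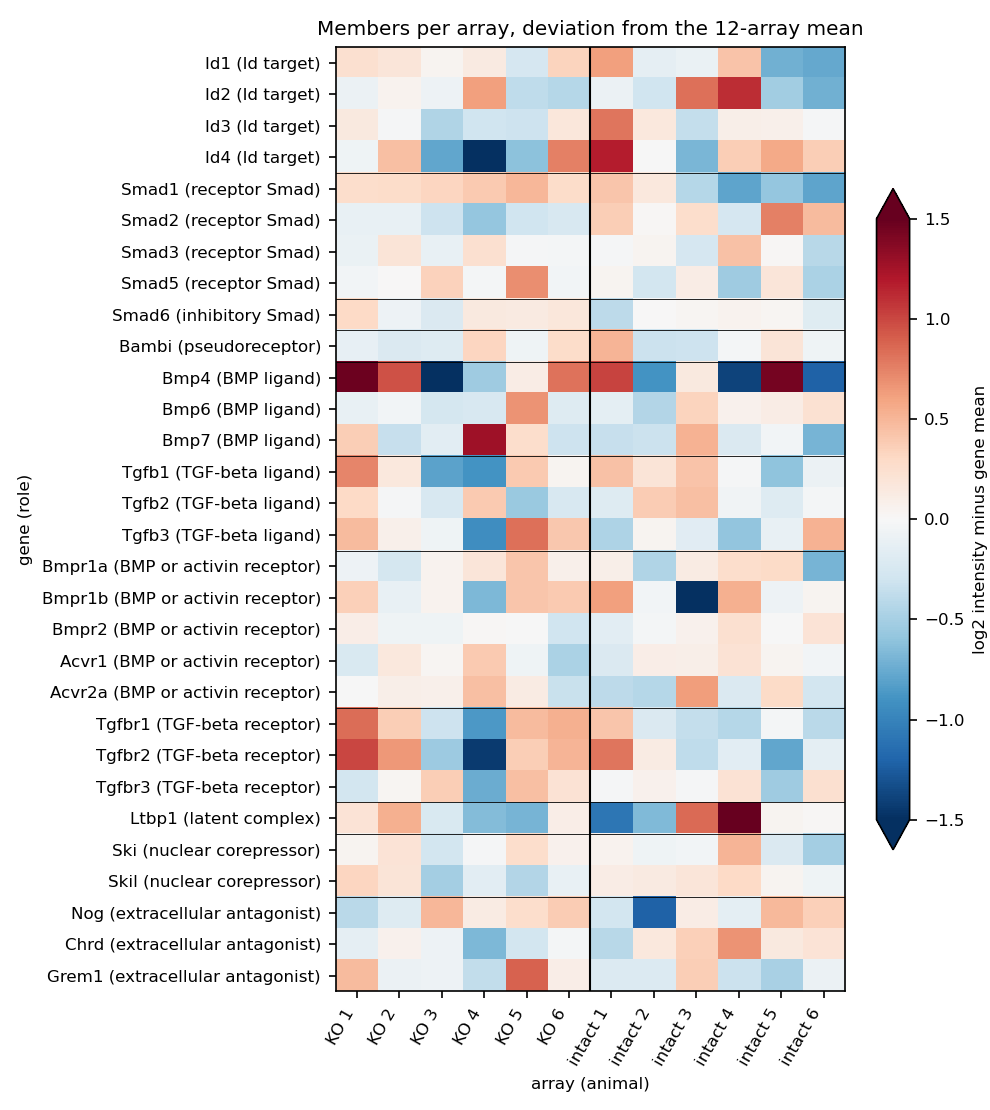
Heat map of the 30 measured members (rows, ordered by role) on the 12 arrays (columns, knockout left of the line and intact right of it), coloured by log2 intensity minus the gene's mean over all arrays. The knockout replicate 4 column is low for Id4, Tgfb1, Tgfb3, Tgfbr1 and Tgfbr2 and high for Bmp7, and the Bmp4 row varies most.

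None of the tested inhibitors outside the cell and in the nucleus passed the test between the groups. Chrd encodes chordin, which binds BMPs and keeps them from their receptors. It read 7.62 at the lowest, 8.19 at the median and 8.35 at the highest in knockout tumours, against 7.88, 8.48 and 8.97 in intact tumours. Every intact array but replicate 1 lay above all knockout arrays, and the difference was -0.38 (SE 0.18, limma adjusted p = 0.442), but it was -0.28 without knockout replicate 4, the lowest array, and 0.05 with the number series as a block. Nog, which encodes the BMP antagonist noggin, read 5.46 to 6.35 in knockout and 4.64 to 6.34 in intact tumours and differed by 0.23 (SE 0.26). The Nog difference was 0.006 without intact replicate 2, its lowest array, 0.90 with the number series as a block, -0.07 with the column position as a block and -0.17 with age as a covariate. Grem1, a further BMP antagonist, was seen above background in 3 of the 6 knockout tumours and 1 of the 6 intact ones and differed by 0.31 (SE 0.21), which was -0.28 within the first 6 columns and 0.73 within the last 6. It met the filter of 3 arrays through its knockout arrays, so the filter favoured a higher knockout value and the Grem1 difference is a description. Fst, which encodes the activin-binding follistatin, passed detection in 1 of the 6 knockout tumours and 1 of the 6 intact ones and was not tested. Bambi, a receptor-like inhibitor without a kinase, passed detection in 2 of the 6 knockout tumours and 1 of the 6 intact ones and differed by 0.004 (SE 0.17). Skil and Ski encode nuclear proteins that repress Smad targets. Skil lay at 9.41 to 10.25 in knockout and 9.87 to 10.22 in intact tumours, with 4 of 6 knockout arrays below every intact array and a difference of -0.23 (SE 0.16). Ski differed by 0.09 (SE 0.17) on its brightest probe. A second Ski probe, detected in 2 of the 6 knockout tumours and 4 of the 6 intact ones, was at -0.32 (SE 0.15).

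Probes of the same gene disagreed often. Of the 68 probes named for members, 47 passed the filter, and 14 members had several such probes. For 8 of these 14 the probes differed in sign. In Acvr1, Acvr2a, Ski and Ltbp1 at least 1 probe reached 3 detected arrays only in the group where it read higher. The filter favoured the sign of such probes, so their part in this count is a description. Id4, Smad3, Bmp4, Bmpr1a, Tgfbr1 and Skil had probes of 1 sign.

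**Figure D4:**
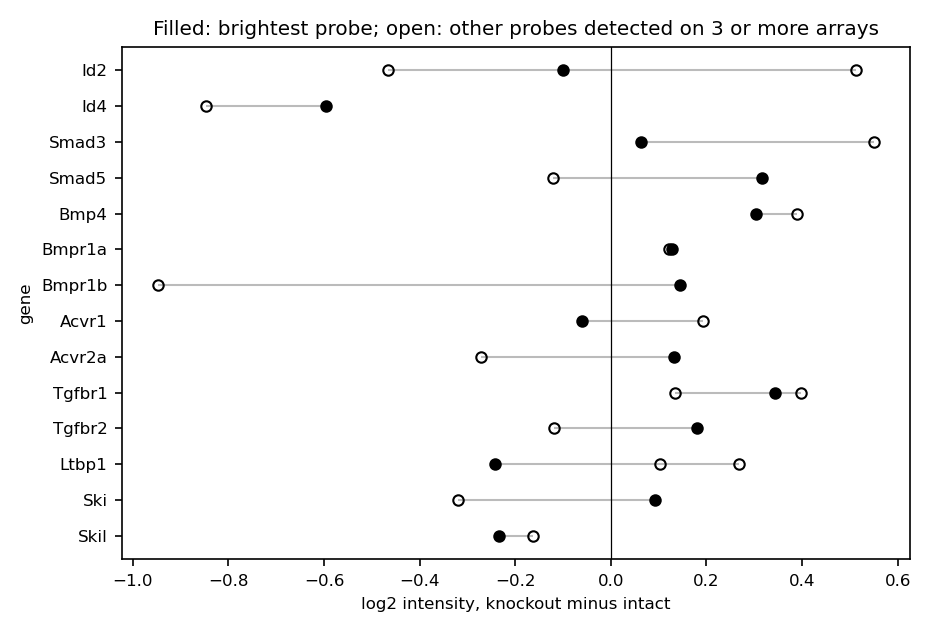
Log2 difference, knockout minus intact, of each probe for the 14 members with several probes that passed the filter. Filled circles are the brightest probe of a gene and open circles its other probes; Bmpr1b (0.14 and -0.95) and Id2 (-0.10, 0.51 and -0.47) lie on both sides of 0.

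Tgfb1 and Tgfbr1 followed the microglia and macrophage markers across the 12 arrays, and their relation to the other marker lists was not tested. No other member was tested against the microglia and macrophage markers, so the relation is not shown to be particular to these genes. The pericyte and fibroblast list mean was also lowest in knockout replicate 4 (-1.41) and highest in knockout replicate 1 (0.65). These were the lowest and the highest arrays of both genes, so the relation is not shown to be particular to microglia. In all, 8 relations were computed, each with two-sided permutation p-values adjusted over the 8. Tgfb1 followed the mean of the microglia and macrophage markers (Pearson r = 0.82, permutation adjusted p = 0.0158; Spearman rho = 0.81, permutation adjusted p = 0.0139, n = 12). Tgfbr1 did so too (Pearson r = 0.75, permutation adjusted p = 0.0182; Spearman rho = 0.71, permutation adjusted p = 0.0494, n = 12). Knockout replicates 3 and 4 were farthest from the median of the markers, and without them r was 0.54 for Tgfb1 and 0.70 for Tgfbr1. Within the groups of 6, r for Tgfb1 was 0.87 over knockout (exact permutation p = 0.075) and 0.67 over intact tumours (exact permutation p = 0.058). For Tgfbr1 it was 0.90 (exact permutation p = 0.047) and 0.83 (exact permutation p = 0.13). Within the first 6 columns r was 0.82 and within the last 6 it was 0.81 for Tgfb1, and 0.79 and 0.78 for Tgfbr1. The exact permutation p-values of these column sets were 0.053 to 0.13. None of these p-values is adjusted. Each set of 6 columns holds 5 arrays of 1 group, so these values largely repeat the split by group. Of the microglia and macrophage list 8 of 9 markers were measured. Between the groups 6 of the 8 were above 0, while the list mean differed by -0.16. The summed intensity was 1760 to 5401 in knockout and 3036 to 6392 in intact tumours, and knockout replicates 3 and 4 had the lowest list means. These values share arrays, tissue composition and normalization.

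**Figure D5:**
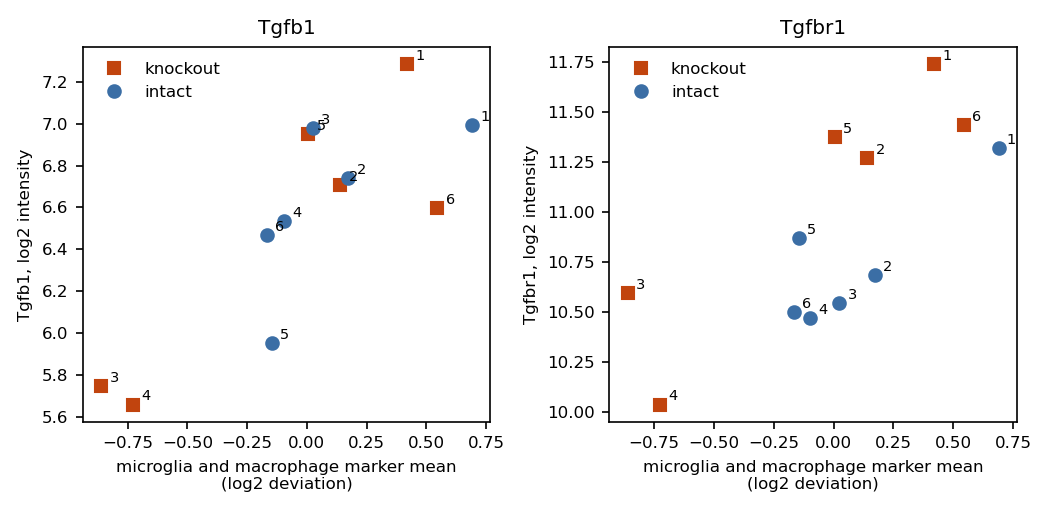
Log2 intensity of Tgfb1 (left) and Tgfbr1 (right) against the mean log2 deviation of 8 microglia and macrophage markers, 1 point per tumour with its replicate number, squares for knockout and circles for intact. Knockout replicates 3 and 4 lie at the low end of the markers (-0.86 and -0.73) and of Tgfb1 (5.75 and 5.66).

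The other 6 relations did not pass. Id1 with Id3 had a Pearson r of 0.39 (permutation adjusted p = 0.257) and a Spearman rho of 0.53 (permutation adjusted p = 0.157, n = 12). Without intact replicates 5 and 6, the arrays lowest in Id1, r was 0.73, and it was 0.73 over knockout and 0.54 over intact tumours. With the endothelial marker mean, Id1 had r = 0.44 (permutation adjusted p = 0.2502) and rho = 0.34 (permutation adjusted p = 0.366), and r was 0.11 without intact replicate 5 and knockout replicate 1. Id3 had r = 0.48 with that mean (permutation adjusted p = 0.2502) and rho = 0.54 (permutation adjusted p = 0.157), and r was 0.68 without the same arrays. Bmp7 ran opposite to the choroid plexus and ependyma markers at r = -0.45 (permutation adjusted p = 0.2502) and rho = -0.38 (permutation adjusted p = 0.363), with r = -0.23 without intact replicate 6 and knockout replicate 1. Id1 with Smad6 was at r = -0.01 (permutation adjusted p = 0.991) and rho = 0.15 (permutation adjusted p = 0.731), with r = -0.32 without intact replicates 5 and 6. Ltbp1 with the pericyte and fibroblast markers was at r = 0.04 (permutation adjusted p = 0.991) and rho = -0.10 (permutation adjusted p = 0.768), with r = -0.34 without intact replicate 5 and knockout replicate 4.

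The wider pathway was read through 62 further genes, of which 42 were measured. By limma, 0 of 42 were higher and 0 were lower at an adjusted p below 0.05, 4 had an unadjusted p below 0.05 (9.52%, beside 11.9% of all genes), each of them higher in knockout tumours, and the median difference was 0.05, beside -0.0026 for all genes. Eng encodes endoglin, an endothelial co-receptor for TGF-beta and BMP9. It read 7.35 at the lowest, 7.56 at the median and 8.32 at the highest in knockout tumours, against 6.43, 6.95 and 7.42 in intact tumours. All knockout arrays but 1 lay above every intact array, and the difference was 0.73 (SE 0.21, limma adjusted p = 0.214). The endothelial markers, 9 of 9 measured, had a mean 0.07 higher in knockout tumours, with 4 of the 9 above 0. Their mean ranged from -0.32 to 0.40 in knockout and from -0.51 to 0.34 in intact tumours. Thbs1, whose product thrombospondin 1 can activate latent TGF-beta, read 5.13 to 6.13 in knockout and 4.41 to 5.26 in intact tumours, a difference of 0.76 (SE 0.20, limma adjusted p = 0.212). It was detected in 6 of the 6 knockout tumours and 3 of the 6 intact ones, so its intact values lay near background. Within series A Eng read 7.42 to 7.97 in knockout and 7.28 to 7.42 in intact tumours. Thbs1 read 5.13 to 5.67 and 4.96 to 5.11 there. Gdf11, a ligand of the activin branch, passed detection in 3 of the 6 knockout tumours and 0 of the 6 intact ones and was at least 1.23-fold higher in knockout tumours (limma adjusted p = 0.234), a bound that sets the knockout mean against the lowest detectable level of each intact array. Gdf11 passed the detection filter through its knockout arrays alone, so the filter favoured a difference in that direction and its values, also as 1 of the 4 genes above, are a description.

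Genes known to respond to TGF-beta were above 0 on all 4 measured of 6 listed, with a median of 0.61, and none of the 4 passed the test. Tsc22d1 read 11.81 to 12.48 in knockout and 10.65 to 11.93 in intact tumours, a difference of 0.65 (SE 0.19, limma adjusted p = 0.230), and its second probe had the opposite sign, at -0.23. Tgfbi, a secreted matrix protein gene, read 7.88 to 10.31 in knockout and 6.75 to 10.03 in intact tumours, with differences of 0.78 and 0.77 on its probes (limma adjusted p = 0.594 on the brighter one). Within series A Tgfbi read 8.98, 9.13 and 9.85 in knockout and 9.60 and 10.03 in intact tumours, so it was not higher in knockout tumours there. Tsc22d1 read 11.95 to 12.08 in knockout and 11.50 to 11.56 in intact tumours of that series. Pmepa1, a feedback inhibitor of TGF-beta signalling, was at 0.31 (SE 0.19) and 0.76 on its probes. The activin receptors Acvr1b and Acvr2b were at -0.42 (SE 0.24) and -0.31 (SE 0.18), and further Acvr1b probes were at -0.10 and 0.27. Genes known to respond to BMP had 1 of 3 measured members above 0 and a median of -0.09. The 6 measured extracellular antagonists outside the main list had differences of 0.06 to 0.41, and none passed.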

How the data were processed

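RNA of 12 gliomas was hybridised as biotinylated cRNA to Illumina bead arrays. The deposited table holds 45135 probes, each with an intensity that was not normalized between arrays and, per the file headers, a detection p-value. The authors' value table, also deposited, holds intensities on a linear scale of unstated normalization and served as an alternative. The number of columns of other samples was 0. Probe symbols came from the platform annotation, updated through Entrez identifiers (34694 of 34772 singly named probes) against GRCm38.p6. Signals were corrected and quantile-normalised with neqc (limma 3.58.1, R 4.3.3, offset 16), probes detected at p below 0.05 on at least 3 arrays were kept, and a gene was its brightest kept probe. Groups were compared by limma with Benjamini-Hochberg adjustment over 14155 genes, after the fit was tested on simulated data. Relations used 100000 permutations (scipy 1.17.1). The members, lists and rules were chosen with earlier results of these data known: all 34 members are named, with the 8 further pathway genes of smallest p. The p-values measure the spread between animals, and the number of arrays limits precision. Alternatives covered background, normalization, filter, probe, block, age, weights and leaving out each array.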

Additional observations from a re-analysis of the deposited data

Results flagged for a closer look

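Of 60 sets of 6 values (30 members in each group), 3 held an array whose gap to its nearest neighbour was too large a share of the group's range for Dixon's 95% critical value. Chance flags about 1 in 20 such sets, which is also the share seen here. Bmp6 in knockout replicate 5 read 5.33, with the next highest knockout array at 4.62. Bmpr1b in intact replicate 3 read 4.95, with the next lowest intact array at 6.39; without that array the Bmpr1b difference was -0.14, against 0.14 with it. Tgfbr3 in intact replicate 5 read 5.65, with the next lowest intact array at 6.16.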

How the results depend on the processing

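The count of members called stayed at 0 higher and 0 lower under all 24 alternatives, 12 of which leave out 1 array. Over all genes the counts were 1 higher and 1 lower, and without intact replicate 1 they were 90 and 14, none of them a member. The median difference of the members lay between 4.6e-05, without intact replicate 6, and 0.12, with array weights. Of the 30 members 11 had a difference of at least its SE, and 8 of these 11 kept their sign under every alternative that measured them: Id4, Smad1, Smad2, Smad5, Smad6, Bmp7, Tgfbr1 and Grem1. Grem1 reached 3 detected arrays in the knockout group alone, so the filter favoured its sign and its place among these is a description. Within the first and the last 6 columns, however, Id4, Bmp7, Grem1 and Smad6 had opposite signs, at 0.34 and -0.56, -0.38 and 0.69, -0.28 and 0.73, and -0.0016 and 0.39. The sign turned for Id3 with the column position as a block (0.055), for Chrd with the number series as a block (0.046) and for Skil with age as a covariate (0.064), and the cause was not tested. Smad1 ran from 0.06 with the number series as a block to 0.82 without intact replicate 1, with adjusted p of 0.0530 to 0.999. Smad2 ran from -0.65 to -0.37, with adjusted p of 0.218 to 0.999. With age as a covariate they were at 0.76 and -0.46. No paired analysis was possible because the labels give no replicate number shared by the groups. Signals near background limit Bambi, Bmp6, Acvr2a and Grem1, which were detected on 3 to 7 of 12 arrays.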
